A study of Mus musculus with 8 samples.

Results

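The comparison described here sets 4 of the 8 arrays of a mouse graft T cell study against the other 4. The higher side holds the arrays whose sample titles end in 3 or 4, with 2 arrays from rejecting and 2 from tolerant hosts, and the lower side holds those ending in 1 or 2, again with 2 of each. The sides were chosen by measured values of these same arrays, because the arrays numbered 3 and 4 carried more signal. The contrast between the sides is therefore given as values, differences and counts, with no test.

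The mice were wildtype CD1, an outbred stock, and all carried grafts of tissue derived from human embryonic stem cells. Rejecting hosts were left untreated. Tolerant hosts had received injections against CD4 and CD8, the coreceptors of helper and cytotoxic T cells, and against CD40L, by which helper T cells license antigen-presenting cells. CD3+ T cells were taken from the grafts after 30 days, and total RNA was labelled with biotin for whole-transcript arrays. Whether the arrays stand for different mice is not stated, so a p-value reflects the spread among these samples alone, and part of that may be technical. Nor do the sources say how arrays with the same number were related.

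T cells are recognised by the CD3 chains, which carry the signal of the T cell receptor into the cell. Like other small lymphocytes they hold little RNA at rest, and most of it is ribosomal RNA with a set of very abundant messages. Those messages encode actin and its partners, ribosomal proteins, elongation factors, class I antigen-presenting molecules and enzymes of energy metabolism. Small structural RNAs, such as the spliceosomal and 7SK RNAs, are abundant in every nucleus. In bulk samples, fewer cells of a type and less RNA per cell cannot be told apart.

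All values are log2 RMA values, and a difference of 1 on this scale is a 2-fold difference. Array medians lay between 0.468 and 0.521, while the 99th percentile was 2.47 to 2.61 on the lower side and 3.85 to 4.43 on the higher. Each array got its own background line, the 99th percentile over 1180 olfactory or vomeronasal receptor probe sets, which stand for silent genes. It ranged from 1.15 to 1.35 on the lower side and from 0.991 to 1.14 on the higher. Of 18820 genes, 4.81%, 5.57%, 2.77% and 2.51% lay above it on rejecting 1, rejecting 2, tolerant 1 and tolerant 2. On rejecting 3, rejecting 4, tolerant 3 and tolerant 4 the shares were 14.2%, 9.09%, 16.3% and 15.9%. This gap depends on the line. With a line from taste receptor, defensin and keratin-associated genes, the mean shares were 2.94% on the higher and 3.31% on the lower side, so every statement on genes above the line holds for the receptor line only. From here on the values of a gene are listed in this order of arrays, the 4 of the lower side first.

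The label of T cells rested on few markers on either side. Of 10 measured T cell markers, 3, 4, 4 and 5 lay above the line on rejecting 3, rejecting 4, tolerant 3 and tolerant 4, and 1, 1, 1 and 0 on the arrays numbered 1 and 2. Cd3e, the epsilon chain of the CD3 complex, read 0.88, 1.20, 1.05 and 0.57, and then 1.51, 2.36, 2.75 and 3.82. Every array numbered 3 or 4 was above every array numbered 1 or 2, with a mean difference of 1.68. Cd3g, the gamma chain, was above the line only on the tolerant arrays numbered 3 and 4, at 1.28 and 1.90. Cd3d, Cd247 and Cd28, which encode the delta and zeta chains and a costimulatory receptor, were above the line on 0 of the 8 arrays.

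Across the 21218 probe sets with exactly 1 gene symbol, the split ran mainly one way. On the arrays numbered 3 and 4, 504 probe sets were higher by more than 1 on the log2 scale, and 0 were lower by more than 1. The differences ran from -0.92 to 5.60, with a median of 0.017. Counted as genes, with the brightest probe set standing for each, 243 of 18820 (1.29%) were higher by more than 1, 62 by more than 2 and 14 by more than 3. By overlap, 1656 genes (8.8%) had all 4 arrays numbered 3 and 4 above all 4 of the other side, and 1111 genes (5.9%) had them all below. The rule that formed the sides used these values, so nothing is read from the shares themselves. They are the shares over all genes against which each class count without overlap below is to be set.

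The mean over the 8 arrays includes the higher side, so a wide gap itself raises a probe set's level, and the counts are a description. Among 45 probe sets with a mean of at least 3 over the 8 arrays, 38 were higher without overlap and 35 were higher by more than 1. For 303 probe sets with means from 2 to 3, 245 (80.9%) were higher without overlap, with a median difference of 1.98. In the range from 1 to 2 the share was 38.1% of 1950, and among the 9298 with means under 0.5 it was 1.6%, while 11.4% of those were lower without overlap. Of 222 probe sets above the line on all 4 arrays numbered 1 and 2, 47.7% were higher without overlap, with a median of 0.55. Of the 504 probe sets higher by more than 1, 245 were above the line on 0 of the arrays numbered 1 and 2 and 455 were above it on all 4 of the others. A difference for a gene below the line on one side is a difference from background, so its size is not exact.

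Of those 504 probe sets, 372 were higher by more than 1 in the rejecting pair and in the tolerant pair alike, a count that their choice by the mean of both gaps favors. Across all 21218 probe sets, the gap in rejecting arrays and the gap in tolerant arrays correlated with r = 0.728, a value across probe sets, which share arrays and brightness and are not independent. Values of the 4 arrays numbered 3 and 4 correlated with one another by 0.855 to 0.927, and tolerant 3 and tolerant 4 were the closest pair. The arrays numbered 1 and 2 correlated by 0.598 to 0.639 with one another, no more closely than with arrays of the other side, at 0.551 to 0.654.

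**Figure D1:**
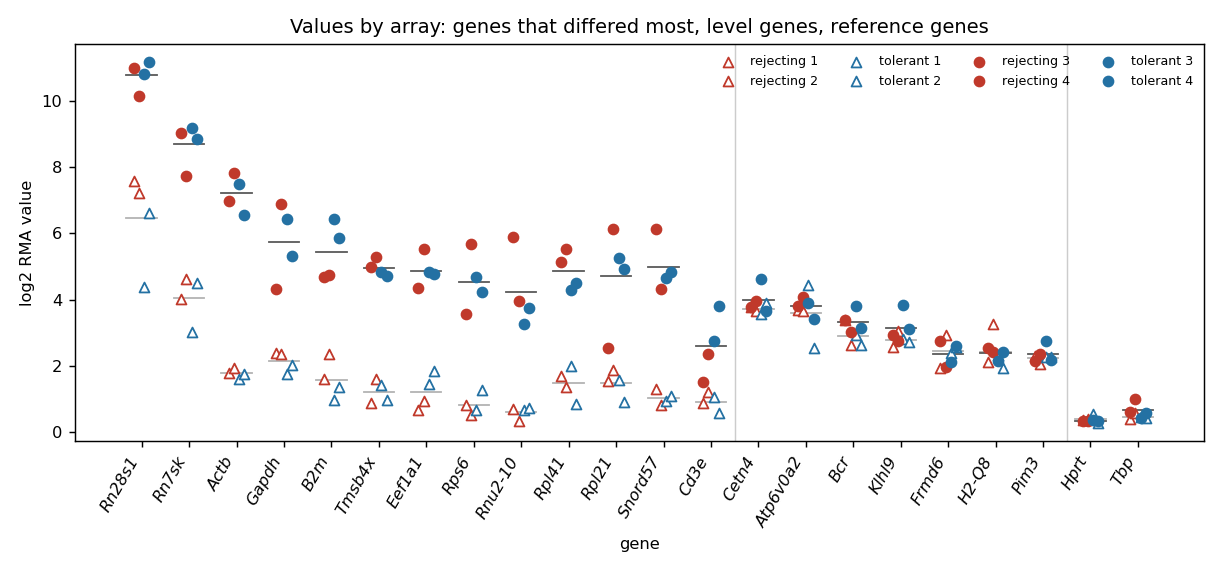
Log2 RMA values (vertical axis) of 22 genes (horizontal axis) on each array, with filled circles for arrays numbered 3 and 4, open triangles for arrays numbered 1 and 2, red for rejecting and blue for tolerant, and a bar at the mean of each side (n = 4). From Rn28s1 to Cd3e the circles lie above the triangles; from Cetn4 to Pim3 they mix; Hprt and Tbp lie at background on both sides.

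Structural RNAs gave the brightest named signals and some of the widest gaps. Rn28s1, the 28S RNA of the large ribosomal subunit (probe set 10593865), read 7.58, 7.22, 4.39 and 6.60 on the lower side and 10.98, 10.14, 10.80 and 11.16 on the higher. The means were 6.45 ± 1.43 and 10.77 ± 0.45 (SD, n = 4 each), a difference of 4.32, which became -0.09 when the arrays were brought together by cyclic loess. Tolerant 1 was the lowest array for this RNA. Rn7sk, the 7SK RNA that holds the elongation factor P-TEFb inactive, differed by 5.60 at probe set 10595140 and by 4.65 at 10426437. Its values at the first were 3.17, 3.20, 1.49 and 4.37, then 8.15, 7.62, 9.33 and 9.51. Here too tolerant 1 was lowest, and the sides did not overlap.

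Rnu2-10, the U2 RNA of the spliceosome, has 11 probe sets with 6 distinct sets of values, and all 11 were higher without overlap, by 2.62 to 3.61. The brightest read 0.70, 0.35, 0.66 and 0.73, then 5.88, 3.97, 3.27 and 3.76. At this probe set the lower side was below the line and the higher side above it, with rejecting 3 the highest, while probe set 10603736 was above the line on rejecting 1, at 1.39. Of 15 genes that RefSeq classes as ribosomal, small nuclear, RNase P, RNase MRP, Y or telomerase RNA, 10 were higher without overlap and 1 was lower, with a median difference of 1.22. This class was formed after the values had been seen. Rny3, a Y RNA that binds the Ro protein, differed by 1.95, and Rmrp, the RNA of the ribonuclease that trims ribosomal RNA precursors, by 1.83. The lower one was Rnu5g, a U5 RNA gene, with a difference of -0.71 and no array above the line. Terc, the telomerase RNA, overlapped between the sides with a difference of 0.31.

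Genes of the actin cytoskeleton included the widest gap of a protein-coding gene. Actb, the beta chain of cytoplasmic actin (10535381), read 1.79, 1.95, 1.62 and 1.76, then 6.98, 7.82, 7.47 and 6.54. The means were 1.78 ± 0.13 and 7.20 ± 0.56 (SD, n = 4 each), a difference of 5.42. Actb was flat across the lower side, just above the line, and its lowest value on the higher side exceeded the highest of the lower side by more than 4. Tmsb4x, which encodes thymosin beta-4 and sequesters actin monomers, read 0.87, 1.61, 1.44 and 0.97, then 4.99, 5.27, 4.82 and 4.70. Actg1, the gamma chain, differed by 2.69 and Pfn1, profilin, which loads monomers onto growing filaments, by 2.61. Of 23 measured genes of this class, 14 (60.9%) were higher without overlap and 0 were lower, against 8.8% and 5.9% of all genes. By more than 1, 9 (39.1%) were higher, against 1.29%. The median was 0.75, against 0.014 over all genes.

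Ribosomal proteins formed the largest block among the genes that differed most. They were 36 of the 243 genes higher by more than 1 (14.8%) and 16 of the 62 higher by more than 2 (25.8%). In the large subunit, 34 of 42 measured genes (81.0%) were higher without overlap and 0 lower, with a median difference of 1.19. The small subunit had 21 of 28 (75.0%) higher and 0 lower, with a median of 0.97. Over all genes, 8.8% were higher. Rpl41 read 1.70, 1.36, 2.00 and 0.85, then 5.13, 5.53, 4.30 and 4.49, a difference of 3.38. Rpl21 read 1.55, 1.88, 1.57 and 0.92, then 2.55, 6.13, 5.26 and 4.92, so rejecting 3 stood well under the other 3 arrays of its side. All 41 probe sets for Rpl21 were higher without overlap, by 1.70 to 3.27. Such probe sets lie over near-identical copies in the genome, and signal from one copy cannot be told from another.

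Rps6, a component of the small subunit and a target of growth-factor signalling, read 0.81, 0.52, 0.66 and 1.26, then 3.57, 5.69, 4.67 and 4.23. None of its arrays numbered 1 or 2 was above the line, and the difference was 3.73. Rps26, Rps15 and Fau, which encodes a ubiquitin-like fusion with a small-subunit protein, differed by 2.70, 2.59 and 1.99. Rpl13a and Rplp1 were above the line on all 8 arrays and differed by 2.21 and 1.97. Rpl27 differed by 1.24 as deposited and by -0.34 under cyclic loess. The ribosome of the mitochondrion did not share this pattern in counts. Of 74 genes, 7 (9.46%) were higher without overlap, near the 8.8% of all genes. A further count gave 0 lower and 0 higher by more than 1, and the median was 0.06. Of those 74, 47 were above the line on no array.

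Factors that work on the ribosome divided. Eef1a1, which delivers aminoacyl-tRNA, read 0.67, 0.95, 1.45 and 1.84, then 4.34, 5.51, 4.84 and 4.77, a difference of 3.63. Eef2, the translocation factor, differed by 2.43 and Tpt1, a translationally controlled message, by 2.04, both without overlap. Among 34 measured translation factors, 9 (26.5%) were higher without overlap, 0 were lower and the median was 0.24. The 17 aminoacyl-tRNA synthetases had 2 (11.8%) higher, 0 lower and a median of 0.13, and 12 of them were above the line on no array. Over all genes, 8.8% were higher.

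**Figure D2:**
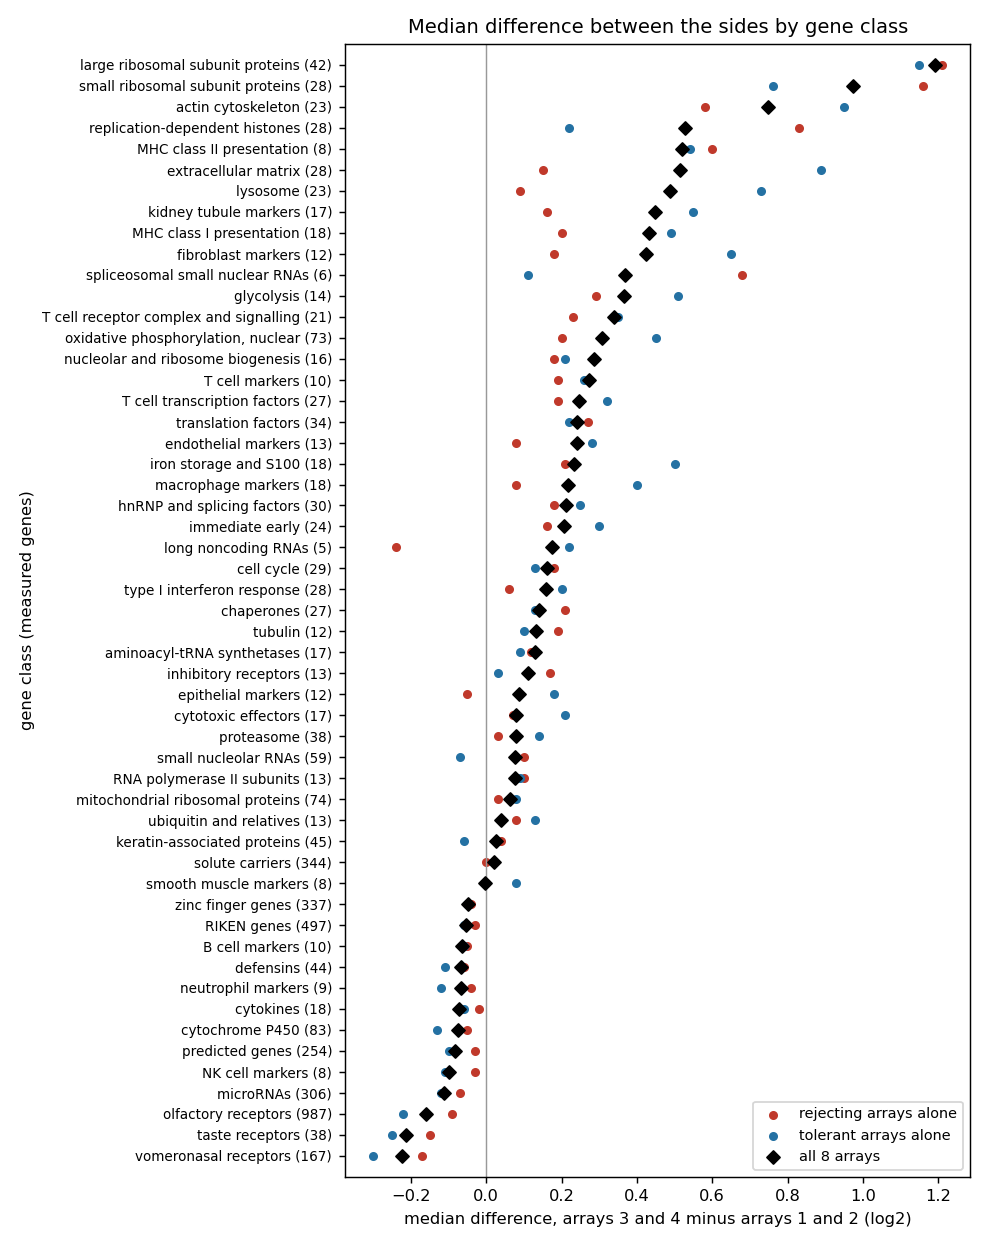
Median difference between the sides on the log2 scale (horizontal axis, arrays numbered 3 and 4 minus arrays numbered 1 and 2) for each gene class with its number of measured genes (vertical axis), as black diamonds for all 8 arrays and as red and blue points for rejecting and tolerant arrays alone. Large ribosomal subunit proteins stand highest at 1.19, and olfactory, taste and vomeronasal receptors lowest at -0.16, -0.21 and -0.23.

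Energy metabolism genes joined some wide gaps with many differences under 0.5. Gapdh, the glycolytic dehydrogenase, has 17 probe sets, all higher without overlap, by 2.73 to 4.37. The brightest, 10353250, read 2.40, 2.36, 1.76 and 2.04, then 4.32, 6.87, 6.43 and 5.32, with rejecting 3 the lowest of the higher side. Aldoa, aldolase A, differed by 2.12 without overlap, while Pgam1, phosphoglycerate mutase, overlapped between the sides with a difference of 0.54 that turned to -0.40 and -0.60 under quantile normalization and cyclic loess. In all, 5 of 14 glycolytic genes (35.7%) were higher without overlap, 0 were lower and the median was 0.37. For nuclear genes of oxidative phosphorylation, 23 of 73 (31.5%) were higher, 0 were lower and the median was 0.31. Over all genes, 8.8% were higher. Above the line on no array were 5 of the 14 and 24 of the 73. Cox7b, a subunit of cytochrome oxidase, read 1.39, 1.31, 0.74 and 1.05, then 2.41, 3.78, 4.97 and 3.59. Atp5b, the catalytic beta subunit of ATP synthase, differed by 1.93. Atp5o, another subunit of the synthase, was above the line on all 8 arrays and differed by -0.38 with overlapping sides.

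Most protein folding and turnover genes overlapped between the sides, with some exceptions. Hspa8, a constitutive heat shock chaperone, read 0.58, 0.69, 0.42 and 0.92, then 2.10, 4.33, 3.77 and 3.82. Ppia, cyclophilin A, differed by 1.45 without overlap. Fkbp1a, also on the chaperone list, had a higher mean than either on the lower side, at 1.42, and differed by 0.35 with overlap. Of 27 chaperones, 5 (18.5%) were higher and 0 lower, and of 38 proteasome genes, 5 (13.2%) were higher and 0 lower. Over all genes, 8.8% were higher and 5.9% lower without overlap. Above the line on no array were 14 of the chaperones and 21 of the proteasome genes. Small differences of these do not show that they were unchanged. Psmb3 was the 1 proteasome gene higher by more than 1, at 1.50.

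Replication-dependent histones, whose messages lack a poly(A) tail, had a median gap of 0.83 in rejecting and 0.22 in tolerant arrays, a difference not tested for the class. Of 28 genes, 8 (28.6%) were higher without overlap and 0 were lower, against 8.8% and 5.9% of all genes. A difference over 1 was seen in 5 of these 8 and in 3 genes whose sides overlapped. H2bc14 read 0.78, 2.61, 1.34 and 1.97, then 4.68, 5.07, 3.32 and 3.82, with both rejecting arrays above both tolerant arrays on the higher side. H2ac21 was above the line on all 8 arrays and differed by 1.80, but by -0.38 under cyclic loess. The interaction of side and group, described further on, called 0 of the 28 in limma.

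Small nucleolar RNAs, which guide modification of ribosomal RNA, held a few members with wide gaps and many at background. Snord57 read 1.30, 0.81, 0.94 and 1.09, then 6.14, 4.31, 4.64 and 4.82, a difference of 3.95. Snord82 read 1.33, 1.13, 0.52 and 1.64, then 5.76, 2.01, 2.92 and 4.43, so that rejecting 3 and rejecting 4 were the highest and lowest of their side. Snord49b differed by 1.90 as deposited and by -0.07 under cyclic loess, and it too was highest on rejecting 3, at 6.36. Snora52 read 4.85 and 4.32 on rejecting 3 and 4 and 1.74 and 2.41 on tolerant 3 and 4, with the other side at 1.16, 0.69, 0.64 and 0.91. Across the 59 measured genes, 11 (18.6%) were higher without overlap and 9 (15.3%) were lower, against 8.8% and 5.9% of all genes. Above the line on no array were 36, and the median was 0.07. Snora36b, the 1 probe set that was lower without overlap and above the line on all 4 arrays numbered 1 and 2, was singled out after its values were seen. It read 1.20, 1.27, 1.39 and 1.74, then 0.98, 1.09, 0.97 and 0.72.

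Malat1, a nuclear long noncoding RNA, followed the split in tolerant arrays alone. It read 1.10, 1.06, 0.81 and 0.88 on the lower side. On the higher side rejecting 3 and 4 were at 1.16 and 0.88, with tolerant 3 and 4 at 4.34 and 3.23. The interaction was 3.00 with a limma adjusted p of 0.0565, which did not pass.

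Genes of the T cell receptor complex and its signalling lay mostly below the line on the arrays numbered 1 and 2. Of 21 measured, 1, 1, 1 and 0 were above it on those arrays, and 5 on no array. Without overlap, 5 (23.8%) were higher and 0 lower, against 8.8% and 5.9% of all genes. A difference over 1 was seen in 1, and 14 overlapped with a difference under 0.5, with a median of 0.34. Most differences start from background, so their small size does not show that this class changed less than others. Thy1, the surface glycoprotein CD90, read 1.59, 0.74, 0.95 and 1.13, then 1.91, 1.89, 1.87 and 2.42. Cd5, an inhibitory surface receptor of T cells, and Cd8b1, the beta chain of the CD8 coreceptor, differed by 0.38 and 0.37 with overlapping sides, and both differences became -0.03 under cyclic loess. Among 17 cytotoxic effector genes 4 (23.5%) were higher without overlap, against 8.8% of all genes. Srgn, the proteoglycan core of cytotoxic granules, read 2.10, 1.73, 1.35 and 1.00, then 2.49, 4.24, 3.42 and 4.31. Ccl5, a chemokine of activated T cells, differed by 1.92 without overlap, and Nkg7, a granule membrane protein, by 0.88 with overlap. On the rejecting arrays Nkg7 ran from 0.31 to 0.94, below the line on each. Above the line on no array were 10 of the 17 cytotoxic genes.

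Of 27 T cell transcription factors, 9 (33.3%) were higher without overlap and 0 lower, with a median of 0.25. Klf2, which keeps T cells quiescent, read 1.33, 1.33, 1.23 and 0.86, then 1.94, 2.04, 1.98 and 1.77, with an SD of 0.12 on the higher side. Id2, an inhibitor of E proteins, read 1.38 and 1.59 on rejecting 3 and 4 and 3.40 and 2.53 on tolerant 3 and 4. All 13 inhibitory receptor genes overlapped between the sides with differences under 0.5. Above the line on no array were 10 of the 13, so for those the overlap does not show steady expression. Tigit, a member of this list, was above the line on all 4 arrays numbered 3 and 4 and on 0 of the others. Its difference of 0.36 became -0.08 under cyclic loess. Of 18 cytokine genes, with a median of -0.07, 1 was higher without overlap and 1 lower. Each is 5.56%, no more than the 8.8% higher and 5.9% lower over all genes. The higher was Ifng, by 0.52, and the lower Il5, at -0.28, named after its values were seen. In this list 14 genes were above the line on no array.

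Among class I antigen presentation genes, B2m had the widest gap. H2-Q1, another gene of this list, was above the line on all 8 arrays and differed by 0.18 with overlapping sides. B2m, the light chain of class I molecules, read 1.60, 2.35, 0.98 and 1.37, then 4.69, 4.75, 6.44 and 5.85. The means were 1.58 ± 0.58 and 5.43 ± 0.86 (SD, n = 4 each), a difference of 3.86, and both tolerant arrays of the higher side stood above both rejecting ones. H2-K1, a classical class I heavy chain, differed by 1.09, with rejecting 3 at 1.50 just under tolerant 2 at 1.51. Of 18 class I genes, 4 (22.2%) were higher without overlap, against 8.8% of all genes, 0 were lower and the median was 0.43.

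Class II genes divided the higher side itself. Cd74, the invariant chain, read 1.55, 1.81, 0.48 and 1.17 on the lower side. On rejecting 3, tolerant 3 and tolerant 4 it read 4.71, 4.67 and 4.67, and on rejecting 4 it read 1.93. H2-Ab1, a class II beta chain, showed the same order, with 3.24, 3.12 and 2.88 on those 3 arrays and 1.51 on rejecting 4. Macrophage markers moved with them. Of 18 measured, 7, 7 and 8 were above the line on rejecting 3, tolerant 3 and tolerant 4, against 0 on rejecting 4 and 0 or 1 on the lower side. Their summed level was 17.5, 19.5 and 21.9 on those arrays, 9.8 on rejecting 4 and 8.6 to 11.3 on the arrays numbered 1 and 2. C1qb, a chain of complement C1q, read 0.92 on rejecting 4 and 2.13, 3.35 and 3.70 on the other 3, and Lyz2, lysozyme, read 0.23 there against 1.41, 3.30 and 3.14. B cell markers lay above the line in 0 of 10 cases on each array numbered 3 or 4. The part of macrophages, B cells or any other cells in the class II values was not tested.

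**Figure D3:**
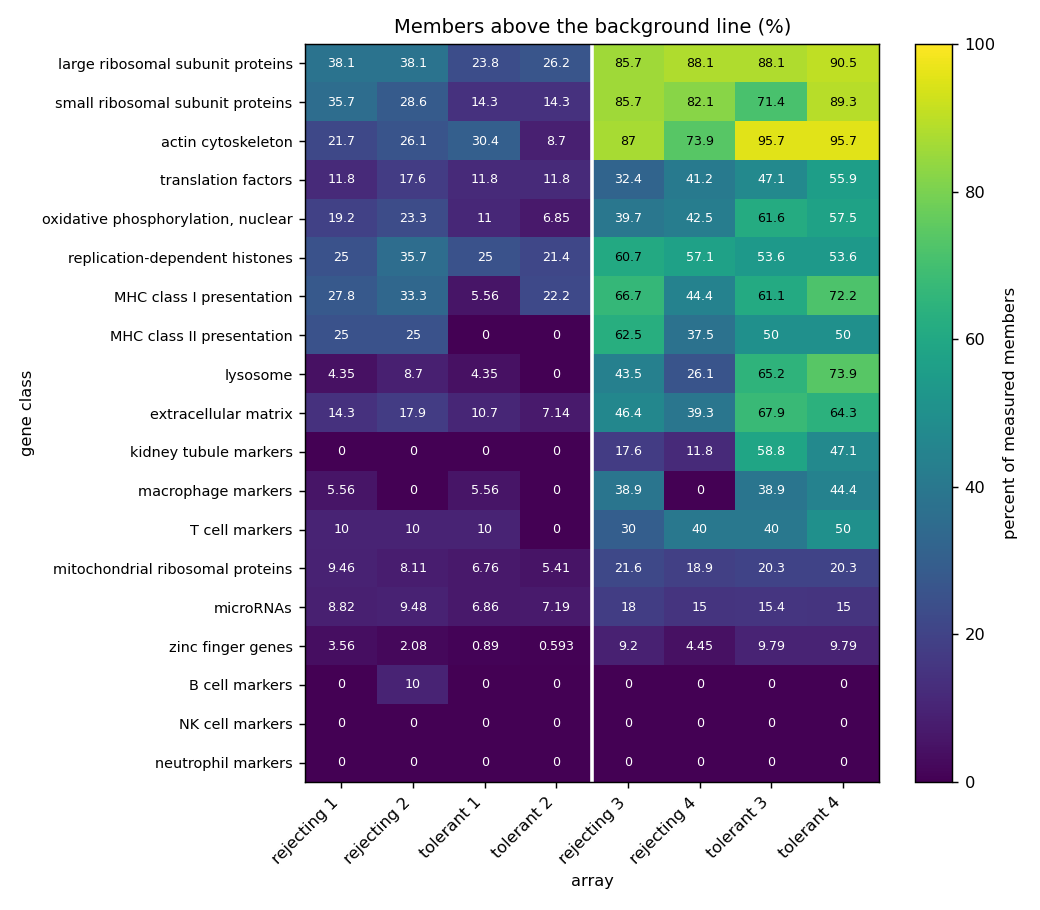
Percent of measured members above the background line (color and printed number) for 19 gene classes (vertical axis) on each of the 8 arrays (horizontal axis), the lower side left of the white bar. Ribosomal protein and actin classes reach 71.4% to 95.7% on every array numbered 3 or 4, macrophage markers are at 0 on rejecting 4, and kidney tubule markers reach 58.8% and 47.1% on tolerant 3 and 4.

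Markers of other tissues were mostly below the line on the arrays numbered 1 and 2. Kidney tubule markers were above it in 0 of 17 cases on each of those 4 arrays, and in 3, 2, 10 and 8 cases on rejecting 3, rejecting 4, tolerant 3 and tolerant 4. Their summed level was 8.3 to 9.8 on the lower side, 12.2 and 13 on the rejecting and 30.1 and 23.1 on the tolerant arrays of the higher side. Umod, the urinary protein of the thick ascending limb, read 1.08, 0.70, 1.17 and 1.25, then 1.76, 2.06, 6.61 and 4.59. Fibroblast markers summed to 8.8 to 10.4 on the lower side and to 15.3, 13, 21.7 and 21.2 on the higher. Col1a1, a chain of collagen I, read 2.08, 1.48, 1.90 and 1.83, then 3.39, 3.08, 4.14 and 3.78. Natural killer and neutrophil markers were above the line in 0 of 8 and 0 of 9 cases on all 8 arrays. B cell markers were above it once, on rejecting 2.

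Extracellular matrix and lysosome genes had median gaps of 0.89 and 0.73 in tolerant and 0.15 and 0.09 in rejecting arrays, differences not tested for the classes. The limma interaction called 3 of 28 matrix genes and 1 of 23 lysosome genes. Of the matrix genes, 12 (42.9%) were higher without overlap and 1 (3.57%) was lower, and of the lysosome genes 6 (26.1%) were higher and 0 lower. Over all genes, 8.8% were higher and 5.9% lower. Sparc, a collagen-binding glycoprotein, read 0.70, 1.07, 0.79 and 1.64, then 2.83, 2.19, 4.82 and 4.45. Psap, the precursor of the saposins that aid lipid breakdown, read 0.91, 1.05, 0.61 and 0.43, then 3.13, 1.82, 3.82 and 3.81. The kidney tubule, fibroblast and macrophage sums given above were also highest on tolerant 3 and 4, and their part in these 2 classes was not tested.

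Not every transcript above background differed. Of 219 probe sets above the line on all 8 arrays, 106 were higher without overlap, 0 were lower, and 85 overlapped with a difference under 0.5. The brightest level gene was Cetn4, a centrin of the centriole, which read 3.77, 3.66, 3.56 and 3.90, then 3.78, 3.96, 4.61 and 3.66, a difference of 0.28. Atp6v0a2, a subunit of the proton pump of endosomes, read 3.69, 3.67, 4.43 and 2.55, then 3.81, 4.07, 3.90 and 3.41. Mrps16, a mitochondrial ribosomal protein, and Bcr, a GTPase regulator, differed by 0.34 and 0.44. Klhl9, a substrate adaptor of a ubiquitin ligase, differed by 0.37, and Pim3, a serine kinase, by 0.13. Frmd6, a scaffold of the Hippo pathway, and H2-Q8, a nonclassical class I gene, differed by -0.09 and -0.04. Mrpl58, of the mitochondrial ribosome, was level at 2.03 ± 0.07 and 2.08 ± 0.20 (SD, n = 4 each).

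The level group is level only on the deposited scale or after subtracting each array's median. Under quantile normalization its 85 probe sets had a median difference of -0.47 and 38 were lower without overlap, and under cyclic loess the median was -0.62 and 67 were lower. Cetn4 went to -1.52 and -1.99 and Pim3 to -0.90 and -1.06 under these scalings. Hprt and Tbp, often used as references of steady expression, lay below the line on all 8 arrays. Hprt averaged 0.40 ± 0.12 and 0.35 ± 0.02 and Tbp 0.47 ± 0.08 and 0.66 ± 0.24 (SD, n = 4 each), so their small differences do not show that they were unchanged.

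Lower values on the arrays numbered 3 and 4 were almost all at background. Of 1270 probe sets lower without overlap, 34 were above the line on any array numbered 1 or 2, and their median mean on that side was 0.49. Silent receptor genes made up 235 of them. Of 987 olfactory receptors, 177 (17.9%) were lower and 6 higher, with a median of -0.16, and of 167 vomeronasal receptors 51 (30.5%) were lower and 0 higher. Over all genes, 5.9% were lower and 8.8% higher. The named genes with the largest lower values were of this kind. Dppa2, a factor of pluripotent cells, read 1.08, 0.96, 1.22 and 2.09, then 0.56, 0.73, 0.10 and 0.26. Trdn, triadin of the muscle calcium store, read 0.86 to 1.05 on the lower side and at most 0.09 on the higher. Ifna12, an interferon alpha gene, Tomm22, a receptor of the mitochondrial import pore, and Cycs, cytochrome c, differed by -0.78, -0.72 and -0.71, and Cycs and Tomm22 were above the line on no array.

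MicroRNA genes showed both directions, and the direction went with the base composition of the precursor. Of 306 measured, 38 (12.4%) were higher without overlap and 65 (21.2%) lower, against 8.8% and 5.9% of all genes. Above the line on no array were 240. Mature microRNAs are cut from hairpin precursors, and bases 2 to 8, the seed, pair with target messages. The sources used here do not say which of these forms the probe sets capture. Hairpin sequences from RefSeq (GRCm38.p6) matched 264 of the genes. Among these, the 4 with the largest higher and the 4 with the largest lower differences without overlap are printed 5′ to 3′ with G and C in capitals, because the share of G and C separates them by eye.
Mir483 (chr7:142654924-142654996, minus strand), higher: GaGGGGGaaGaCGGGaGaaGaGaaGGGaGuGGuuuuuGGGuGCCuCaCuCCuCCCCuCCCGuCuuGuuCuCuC
Mir185 (chr16:18327401-18327465, minus strand), higher: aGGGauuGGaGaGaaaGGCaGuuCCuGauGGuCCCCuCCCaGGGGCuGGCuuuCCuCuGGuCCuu
Mir341 (chr12:109611500-109611595, plus strand), higher: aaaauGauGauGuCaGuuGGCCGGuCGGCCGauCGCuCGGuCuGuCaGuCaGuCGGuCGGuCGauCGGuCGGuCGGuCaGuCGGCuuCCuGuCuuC
Mir346 (chr14:34894609-34894706, plus strand), higher: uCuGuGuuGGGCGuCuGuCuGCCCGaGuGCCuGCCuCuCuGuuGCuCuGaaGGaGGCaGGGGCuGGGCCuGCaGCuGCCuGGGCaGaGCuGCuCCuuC
Mir101a (chr4:101346945-101347027, minus strand), lower: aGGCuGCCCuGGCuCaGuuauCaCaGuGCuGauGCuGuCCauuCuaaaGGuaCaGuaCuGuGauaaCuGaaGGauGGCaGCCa
Mir376a (chr12:109723781-109723848, plus strand), lower: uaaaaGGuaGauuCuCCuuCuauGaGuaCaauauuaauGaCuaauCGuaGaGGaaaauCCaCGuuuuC
Mir302b (chr3:127545228-127545301, plus strand), lower: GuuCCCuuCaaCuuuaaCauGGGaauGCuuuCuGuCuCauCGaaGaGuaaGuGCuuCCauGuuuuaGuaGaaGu
Mir302a (chr3:127545496-127545564, plus strand), lower: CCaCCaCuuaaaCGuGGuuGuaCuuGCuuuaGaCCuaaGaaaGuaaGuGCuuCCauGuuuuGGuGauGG

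Mir483, a microRNA of the imprinted Igf2 gene, read 1.77, 1.72, 1.70 and 1.63, then 3.88, 3.46, 3.70 and 3.32, a difference of 1.89, and 58.9% of its hairpin is G or C. Mir185, Mir341 and Mir346 differed by 1.79, 1.73 and 1.39, with 58.5%, 59.4% and 65.3%. All 4 were above the line on all 8 arrays. Mir101a read 0.45, 1.29, 0.52 and 0.57, then 0.26, 0.22, 0.08 and -0.03, with 49.4% of G and C. Mir376a, Mir302b and Mir302a, the last 2 from a cluster active in pluripotent cells, differed by -0.56, -0.50 and -0.48, with 32.4%, 39.2% and 42.0%, and lay below the line on all 8 arrays.

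Of the mature forms of these 8 genes, the RefSeq table gave 14, which does not cover both arms of every gene. They are printed with the seed in capitals for the 2 genes at the top of each direction.
mmu-miR-483-3p: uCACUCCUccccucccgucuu
mmu-miR-483-5p: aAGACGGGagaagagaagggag
mmu-miR-185-3p: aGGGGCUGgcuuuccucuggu
mmu-miR-101a-3p: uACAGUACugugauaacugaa
mmu-miR-101a-5p: uCAGUUAUcacagugcugaugc
mmu-miR-376a-5p: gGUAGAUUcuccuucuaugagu
mmu-miR-376a-3p: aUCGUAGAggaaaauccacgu

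Over the 264 hairpins, the share of G and C correlated with the difference between the sides, with Pearson's r = 0.60 and a Spearman rank correlation of 0.62. This is a description across genes that share arrays, probe design and base composition, and no p is given. In rejecting arrays alone r was 0.53 and in tolerant arrays alone 0.59. Of 96 hairpins under 45% G and C, 1 was higher without overlap and 35 were lower. Between 45% and 55%, 7 of 113 were higher and 25 lower. From 55% to 65%, 18 of 47 were higher and 0 lower, and of the 8 hairpins above that, 5 were higher and 0 lower. Base composition also went with the value on each single array, with r from 0.49 to 0.55 on the arrays numbered 1 and 2 and from 0.61 to 0.67 on those numbered 3 and 4. For the 211 matched microRNAs above the line on no array r was 0.48, and under cyclic loess it was 0.23 over all 264.

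**Figure D4:**
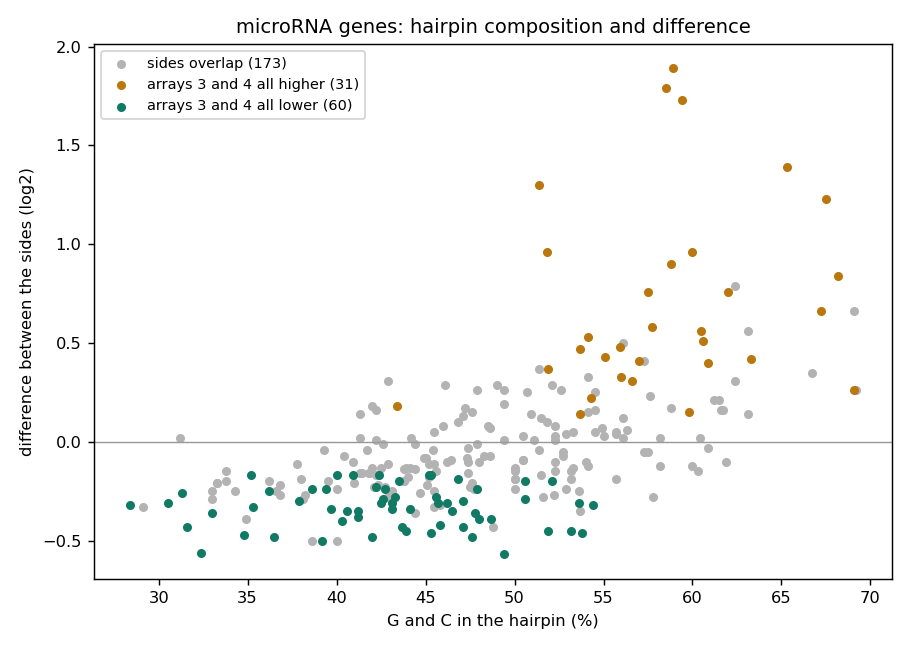
Difference between the sides on the log2 scale (vertical axis) against the percent of G and C in the RefSeq hairpin (horizontal axis) for 264 microRNA genes, with 31 higher without overlap in orange, 60 lower in green and the rest in grey. Nearly all orange points lie right of 50% and the green points lie left of 55%.

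The microRNA genes with the highest means were Mir187, Mir328, Mir320 and Mir486. Mir328 read 1.82, 1.64, 1.95 and 1.64, then 4.62, 4.33, 4.57 and 3.56, a difference of 2.51. Mir187 differed by 1.42 and Mir320 by 0.57 without overlap as deposited, and by -0.14 and -0.93 under quantile normalization and -0.52 and -1.26 under cyclic loess. Mir486, a microRNA of erythroid and muscle cells, overlapped between the sides with a difference of 0.52, and by -0.98 and -1.33 under those scalings.

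Whether the gap between the sides differed between tolerant and rejecting hosts was tested as an interaction in limma, with 2 arrays in each combination of side and group. The rule did not use this contrast. It called 12 of 21218 probe sets (0.0566%) at an adjusted p under 0.05, 10 with a more positive gap in tolerant arrays and 2 with a more positive gap in rejecting arrays, and 1513 had an unadjusted p under 0.05. With the replicate number as a block 7 were called, all with the more positive gap in tolerant arrays. The calls also went to 0 under repeated quantile normalization (lowest limma adjusted p = 0.0829) and with all probe sets tested (0.0754). The difference between the sides in the rejecting pair was small for the 10, from -0.21 to 0.92, against 1.58 to 4.04 in the tolerant pair.

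Sfrp1, a secreted inhibitor of Wnt signalling, read 0.89, 0.66, 1.15 and 0.70 on the lower side, 0.75 and 0.46 on rejecting 3 and 4 and 3.75 and 3.76 on tolerant 3 and 4. Its interaction was 3.00 ± 0.25 (SE, limma adjusted p = 0.00543). Only the tolerant arrays of the higher side were above the line. Slc12a3, the sodium chloride cotransporter of the distal tubule, Bgn, the matrix proteoglycan biglycan, and Cd81, a tetraspanin, had interactions of 3.17, 2.86 and 2.32 with the same adjusted p in limma. Dcn, decorin, read 0.65, 0.52, 0.33 and 0.87, then 1.76, 1.10, 4.90 and 4.39, an interaction of 3.20 (limma adjusted p = 0.0289). These 4 genes besides Sfrp1 kept the call with the replicate block, as Sfrp1 did.

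The other called genes lost the call with the replicate block. Fth1, the ferritin heavy chain, read 1.86, 1.55, 1.31 and 1.49, then 2.45, 2.79, 4.81 and 4.53, so it was higher in both pairs, with an interaction of 2.35 (limma adjusted p = 0.0163, and 0.0976 with the block). Ctsd, a lysosomal protease, and Thbs1, thrombospondin, had interactions of 1.78 and 1.79 (limma adjusted p = 0.0163 each, and 0.0976 and 0.078 with the block). Adgrg1, an adhesion receptor, had 1.98 and Scnn1a, a chain of the epithelial sodium channel, 1.79 (limma adjusted p = 0.0453 and 0.0364, and 0.101 and 0.111 with the block). Rnd2, a small GTPase, ran the other way, at 0.37, 0.09, 0.49 and 0.61 on the lower side, 1.59 and 1.71 on rejecting 3 and 4 and 0.18 and 0.19 on tolerant 3 and 4. Its interaction was -1.79 (limma adjusted p = 0.0201, and 0.0976 with the block), and the 12th was an olfactory receptor that was below the line on all 8 arrays.

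The calls depended on single arrays. Without tolerant replicate 3, limma called 0 probe sets, and without rejecting replicate 4 it called 62 with the more positive gap in tolerant arrays and 14 with the more positive gap in rejecting arrays. Without rejecting replicate 1, rejecting replicate 2, tolerant replicate 1 or tolerant replicate 2, the calls with the more positive gap in tolerant arrays numbered 5, 2, 2 and 4, and without rejecting replicate 3 or tolerant replicate 4 they numbered 17 and 20. In each of these fits 1 combination holds a single array, which is assumed to vary like the others. The kidney tubule, fibroblast and macrophage sums given above differ between the same arrays, and their part in these calls was not tested. The kidney tubule sum includes Slc12a3 and the fibroblast sum includes Dcn, both called here, so these sums are not independent of the calls.

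**Figure D5:**
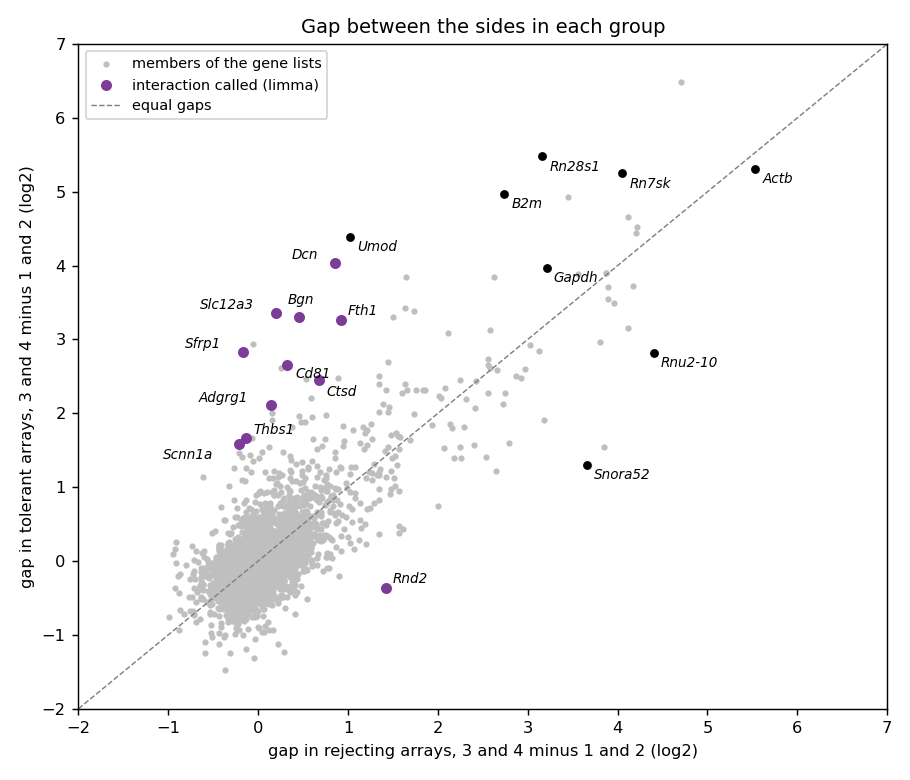
Gap between the sides in tolerant arrays (vertical axis) against the gap in rejecting arrays (horizontal axis), both log2, for 4086 probe sets of the gene lists and named genes, with the line of equal gaps. The 11 purple genes have a called interaction and lie at gaps of 1.58 to 4.04 in tolerant arrays, except Rnd2 at -0.37, and the called olfactory receptor is not marked; Actb and Gapdh lie nearer the line.

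With the side as a term, the comparison of tolerant with rejecting hosts over all 8 arrays called 0 of 21218 probe sets (0.0%) in limma, with 1187 at an unadjusted p under 0.05 and a lowest adjusted p of 0.345. Without that term 613 had an unadjusted p under 0.05, and 0 were called. Aldoa was higher in tolerant arrays by 0.69 ± 0.10 (SE), and Rpl27 lower, with a difference of -0.81 ± 0.12 (SE), each with a limma adjusted p of 0.345. Srsf3, a splicing factor, had the same adjusted p in limma, with a difference of 0.81 ± 0.12 (SE) and overlapping sides.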

How the data were processed

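Total RNA of 8 CD3+ graft T cell samples was measured on single-color whole-transcript arrays. The authors deposited 1 log2 value per probe set, made with RMA in Affymetrix Expression Console, per the submitters' processing notes, which name no version. No source used here states the logarithm's base, which was taken as 2 from the range of the values. The deposited values do not share 1 distribution across arrays, since their upper percentiles differ, so quantile normalization was repeated as an alternative.

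Of 35556 probe sets, 21218 carry exactly 1 gene symbol in the platform annotation, 1881 several and 12457 none. Those with 1 symbol were used. 21185 matched RefSeq genes by Entrez number, and for counts of genes the probe set with the highest mean stood for each of 18820. The background line of each array was the 99th percentile of silent receptor probe sets. The number of arrays limits the precision of every value.

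The members and gene lists were chosen with earlier results of these data known. Named genes were the 12 largest non-overlapping differences in each direction, the 12 brightest level probe sets, up to 4 brightest members of each list, genes called by a test (otherwise the 3 smallest p in each direction) and 8 fixed genes. Predicted genes and receptor segments were counted only. The sides have no test. The interaction and the comparison of tolerant with rejecting arrays were fitted on all 21218 probe sets with limma 3.58.1 (lmFit and eBayes, Benjamini-Hochberg adjustment, R 4.3.3), after the fit had been tested on simulated data. Counts and figures were made with Python 3.11.15, pandas 2.3.3 and matplotlib 3.10.9. Deviations from the group means correlated between same-numbered arrays with r = 0.499, 0.507, 0.41 and 0.599, values that include the difference between the sides. Within a side and group the same correlations were 0.021 and 0.005, so they show no pairing beyond the sides. The main fits had no term for the number, and the replicate block was fitted as an alternative. Alternatives were other scalings, probe set filters, each array left out, each group alone and the replicate block. The class of structural RNAs and the settings for base composition were chosen after seeing the data.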

Additional observations from a re-analysis of the deposited data

Results flagged for a closer look

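Of 180 sets of 4 arrays of 1 host group checked for a single distant array, 8 had one. Each set joins 2 arrays of each side, so no chance rate is given for this count. The gap to the nearest array, as a share of the whole range, was 0.879 for Cd74 and 0.895 for H2-Ab1 in rejecting arrays, both for rejecting 3 as the high array. Nkg7 gave 0.886 in rejecting arrays, with rejecting 2 low at 0.31. Mir486 gave 0.846 in rejecting arrays, with rejecting 1 low at 2.13, and 0.861 in tolerant arrays. Mrpl58 gave 0.873 in tolerant arrays, with tolerant 3 high at 2.37, and Tomm22 gave 0.851, with tolerant 1 high at 1.33. Tbp gave 0.93 in tolerant arrays with tolerant 4 high at 0.57, below background.

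The gap between the sides differed between host groups by the limma interaction for 11 named genes. It was larger in tolerant arrays by 3.17 for Slc12a3, 3.20 for Dcn, 3.00 for Sfrp1, 2.86 for Bgn, 2.35 for Fth1, 2.32 for Cd81, 1.98 for Adgrg1, 1.79 for Thbs1, 1.79 for Scnn1a and 1.78 for Ctsd. For Rnd2 it was larger in rejecting arrays, at -1.79.

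Probe sets with no gene symbol also carried signal. Of 12457 such probe sets, 343 (2.75%) exceeded the line on each of the 8 arrays, against 1.03% of those with 1 symbol.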

How the results depend on the processing

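The counts moved with the scale, the probe sets and the arrays used. Fewer arrays separate without overlap more easily. Counts without overlap from 1 host group alone, or with an array left out, therefore do not show a stronger split. For the other settings the cause was not tested unless fewer or more probe sets entered. Against 2142 probe sets higher without overlap, cyclic loess gave 1232, all probe sets 3299, the filter on at least 2 arrays above the line 1412, rejecting arrays alone 5532 and tolerant arrays alone 6335. Against 1270 lower, quantile normalization and percentile ranks each gave 747, all probe sets 2664, the filter 6, rejecting arrays 4200 and tolerant arrays 5140. Against 504 higher by more than 1, quantile normalization gave 299, cyclic loess 205, all probe sets 1292, 1 probe set per gene 243, and sizes of 0.5 and 2 gave 1511 and 197. Against 0 lower by more than 1, quantile normalization gave 12, cyclic loess 23, all probe sets 225, rejecting arrays 2, tolerant arrays 17 and a size of 0.5 gave 132. The share of genes above the line averaged 13.9% on the arrays numbered 3 and 4 and 3.92% on the others. A line at the 95th percentile gave 40.7% and 13.96%, and a line from taste receptor, defensin and keratin-associated genes gave 2.94% on the arrays numbered 3 and 4 and 3.31% on the others, so the gap between the sides in this share was lost.

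Class medians kept their sign under every setting run for these 7 classes. Under quantile normalization and cyclic loess they were 0.50 and 0.40 for actin, 0.65 and 0.50 for the large and 0.56 and 0.36 for the small ribosomal subunit, 0.15 and 0.11 for oxidative phosphorylation, 0.17 and 0.13 for the T cell receptor complex, -0.07 and -0.06 for microRNAs and -0.09 and -0.05 for olfactory receptors. Median subtraction gave -0.08 for microRNAs. In rejecting arrays alone actin was 0.58, the T cell receptor complex 0.23, microRNAs -0.07 and olfactory receptors -0.09. In tolerant arrays alone actin was 0.95, the small subunit 0.76, oxidative phosphorylation 0.45 and olfactory receptors -0.22. Among named genes whose sides did not overlap, those reversed under cyclic loess were Rn28s1 (-0.09), H2ac21 (-0.38), Snord49b (-0.07), Rpl27 (-0.34), Mir187 (-0.52) and Mir320 (-1.26). Under quantile normalization Mir187 was -0.14 and Mir320 -0.93. Among named genes whose sides overlapped, 13 changed sign under cyclic loess and 10 under quantile normalization.

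With each array left out in turn, 2403 to 2817 probe sets were higher and 1547 to 1872 lower without overlap, 494 to 573 were higher and 0 to 2 lower by more than 1, and the shares above the line were 13.08% to 15.47% and 3.37% to 4.39%. Medians ran from 0.64 to 0.83 for actin, 0.95 to 1.23 and 0.80 to 1.14 for the ribosomal subunits, 0.24 to 0.37 for oxidative phosphorylation, -0.13 to -0.10 for microRNAs, 0.22 to 0.35 for the T cell receptor complex and -0.18 to -0.14 for olfactory receptors. The limma interaction called 0 to 62 with the more positive gap in tolerant and 0 to 14 with the more positive gap in rejecting arrays.

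Fitted with the replicate block, the interaction called 7 with the more positive gap in tolerant and 0 with the more positive gap in rejecting arrays, against 10 and 2. Quantile normalization and all probe sets gave 0 and 0 (limma, 1379 and 2316 at an unadjusted p under 0.05). Cyclic loess gave 16 with the more positive gap in tolerant arrays, and the filter on 2 arrays gave 1 with the more positive gap in rejecting arrays. The comparison of tolerant with rejecting arrays called 0 in limma under each of these settings, the block included, where 1123 had an unadjusted p under 0.05.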

Other observations

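Probe sets with no symbol in the annotation used here showed differences in both directions that the named ones did not. On the arrays numbered 3 and 4, 666 were higher by more than 1 and 225 were lower by more than 1, from -2.69 to 5.91. Of the 225, 7 were above the line on all 8 arrays. Probe set 10341453 read 3.28, 6.40, 5.55 and 6.17 on the arrays numbered 1 and 2 and 3.47, 3.42, 2.35 and 1.40 on the others, so rejecting 1 lay among the higher side. The brightest 5 were level, with means over 11 on both sides and differences from -0.19 to 0.01. Probe set 10338026 read between 12.57 and 12.68 on all 8 arrays. The sources used here do not say what these probe sets detect.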
